A study of Mus musculus with 21 samples.

Results

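The Toll-like receptors are a family of germline-encoded sensors of microbial products, and 10 of their genes were followed here: Tlr1, Tlr2, Tlr3, Tlr4, Tlr5, Tlr6, Tlr7, Tlr8, Tlr9 and Tlr13. They were found by gene name among the 23544 genes to which the deposited transcript values were summed, and all 10 had values. A filter at a mean of 1 TPM (a measure of abundance relative to the whole library, corrected for transcript length) kept 9 of them, and Tlr5 stayed under it. The values came from RNA sequencing of 21 libraries of CD11b+ cells, which the series calls peritoneal macrophages, from C57BL/6 mice (10 mice, with no label tying a well to an animal). The cavities were not elicited, and the cells rested overnight before treatment in medium without serum.

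Wild-type cells gave 9 libraries: no protein, recombinant lumican or recombinant biglycan, each without stimulus, with LPS or with CpG. Cells of the genotype labelled Lum-/- gave 6 libraries, with no protein or lumican under the same 3 conditions. Cells of the genotype labelled Bgn-/-, which the protocol gives as Bgn-/0 and Bgn-/- animals, gave 6, with no protein or biglycan. The stimuli lasted 6 h, with LPS at 100 ng/mL or CpG DNA at 1 µM, and the proteins were added 1 h earlier at 10 µg/mL. The protocol gives no dose or time for the 4 libraries of protein alone. Both proteins belong to the small leucine-rich proteoglycans, a family of the extracellular matrix, and the design asks how their loss or addition alters the response to the 2 ligands. Each combination has 1 library. The repeats behind a stimulus test are therefore the same stimulus under other genotype labels and proteins. Those behind a label or protein test are the same label or protein under other treatments. In neither case do the p-values measure the spread between animals.

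Each Toll-like receptor has an ectodomain of leucine-rich repeats that binds ligand, a single membrane span and a cytoplasmic TIR domain that recruits adaptor proteins. TLR1, TLR2, TLR4, TLR5 and TLR6 act at the cell surface on lipids and proteins of microbes, and TLR3, TLR7, TLR8, TLR9 and TLR13 act in endosomes on nucleic acids. LPS is the ligand of TLR4 with its partner MD-2, and CpG DNA is the ligand of TLR9. Macrophages express most of the family, and the signals end in NF-kB and interferon-regulatory factors.

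The libraries were checked before the members were read. All 7 macrophage markers were present in every library, with a summed level of 29709 to 43626 TPM without stimulus, 32564 to 37401 TPM with CpG and 11500 to 15286 TPM with LPS. Most of that sum was Lyz2, at 25230 to 38548 TPM without stimulus and 9666 to 13270 TPM with LPS. Neutrophil markers summed to 106 to 158 TPM without stimulus, 142 to 199 TPM with CpG and 308 to 387 TPM with LPS, nearly all of it S100a8, with S100a9 at most 0.589 TPM, Ly6g at most 0.302 TPM and Retnlg listed at 0 in every library. The part of such cells in the results with LPS was not tested. Among the other lists, B cell markers summed to 88.2 to 277 TPM, dendritic cell markers to at most 15.9 TPM and T and NK cell markers to at most 4.75 TPM. Transcripts of the targeted genes were found under the knockout labels. Lum was above 0 in all 6 libraries labelled Lum-/- (0.823 to 14.1 TPM, against 0 to 1.4 TPM in wild type). Bgn was above 0 in 5 of 6 labelled Bgn-/- (0 to 3.49 TPM, against 0.327 to 1.52 TPM in wild type). Whether this comes from the labels or from transcripts of the targeted alleles was not tested. A pair of libraries stood apart from the rest: the one labelled Lum-/- that was untreated, and the one labelled Bgn-/- that received biglycan alone. They held 40241 and 40231 transcripts above 0, against at least 56338 in the other libraries without stimulus, and shared high Arg1, at 688 and 601 TPM against at most 67.2 TPM elsewhere. Over 5194 genes their median absolute log2 difference was 0.077, the lowest of the 210 pairs of libraries, with 0.0786 for the next pair. The untreated wild-type library also stood apart, with 1.03 TPM of the mast cell gene Cma1 against at least 20.5 TPM in the other wild-type libraries. All 3 carry no stimulus, so each result below was also fitted without the first 2 and without all 3.

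Without stimulus, Tlr2 was the most abundant member. TLR2 recognises bacterial lipoproteins as a heterodimer with TLR1 or TLR6. Its level in the 7 libraries was 342 to 468 TPM (median 375 TPM, mean 386 ± 44.9 SD). Tlr7, a sensor of single-stranded RNA, followed at 127 to 195 TPM, and Tlr13, which recognises bacterial ribosomal RNA in mice, at 111 to 138 TPM. The ranges of Tlr2 and Tlr7 did not overlap, while those of Tlr7 and Tlr13 did, with Tlr7 the higher of the pair in 6 of 7 libraries. Tlr8, the closest relative of Tlr7, lay at 45.7 to 70.2 TPM and Tlr4 at 33.7 to 60 TPM. These neighbours overlapped in range, although Tlr8 was the higher in all 7 libraries. Tlr1 and Tlr6 overlapped too, at 22.1 to 52.5 and 17.1 to 34 TPM. Tlr3, the receptor for double-stranded RNA, was lower than all of these at 7.15 to 15.9 TPM, and Tlr9 lower again at 1.98 to 4.92 TPM. Tlr5, the flagellin receptor, was listed at 0 in 15 of the 21 libraries and reached at most 0.11 TPM. It was above 0 in 5 of 7 libraries with LPS, in 1 of 7 without stimulus and in 0 of 7 with CpG. Without the filter Tlr5 passed the limma test with LPS against no stimulus, by 0.08 on the log2(TPM + 1) scale (adjusted p = 0.00411), a difference between levels near 0. Tlr11 and Tlr12, the other Toll-like receptor genes of the mouse, reached at most 0.214 and 0.357 TPM.

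**Figure D1:**
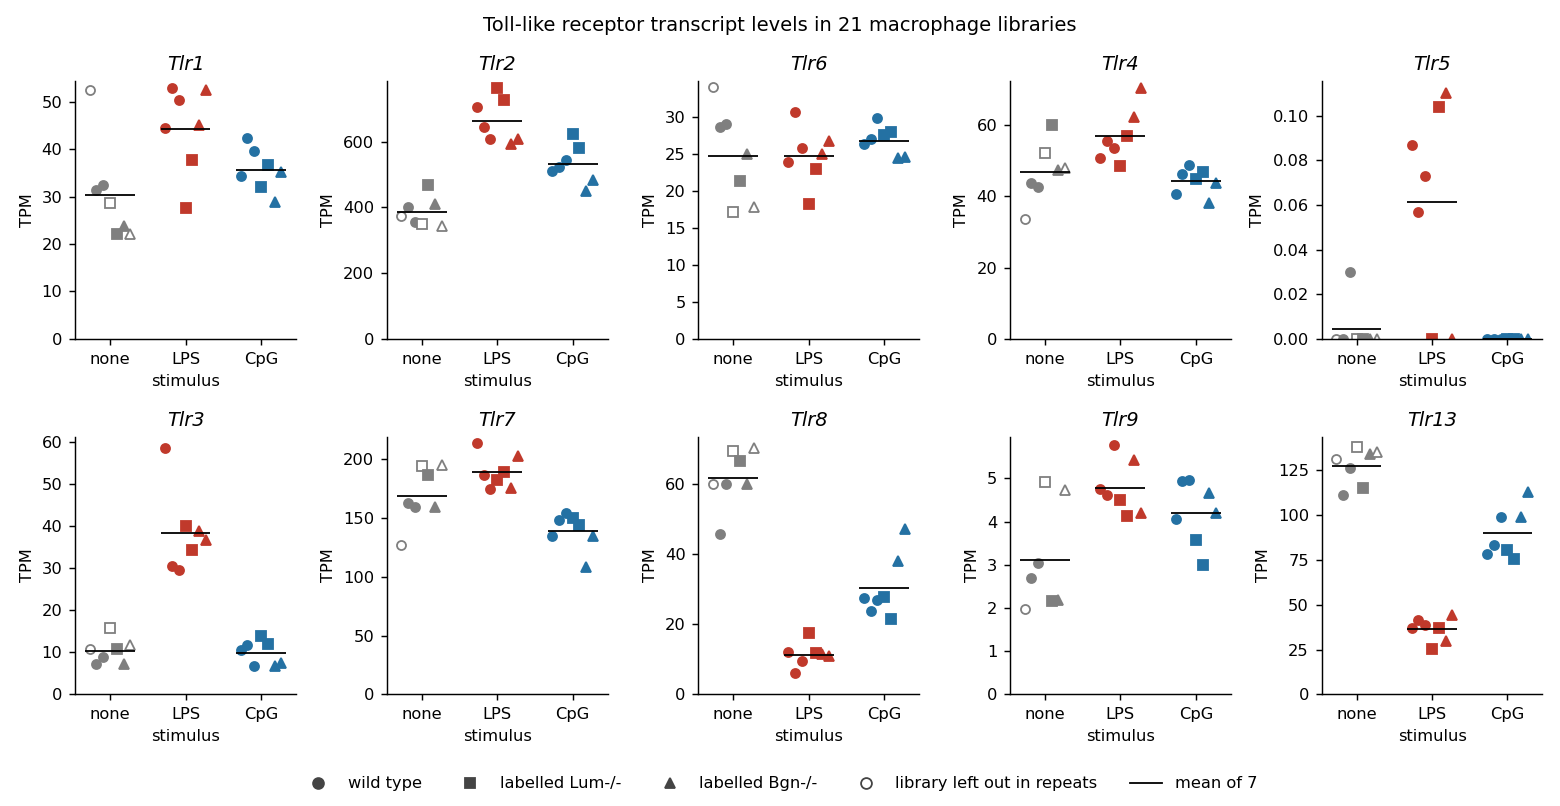
TPM of each of the 10 genes (vertical axes, each from 0) in the 21 libraries by stimulus (horizontal axis); symbols give the genotype label, open symbols the 3 libraries that stood apart, and lines the mean of 7. With LPS, Tlr3 lies at 29.6 to 58.8 TPM, above every other library, while Tlr8 and Tlr13 lie below all libraries without stimulus.

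LPS changed the TPM scale as a whole. The median difference of the 11763 genes tested was -0.72 on the log2(TPM + 1) scale with LPS against no stimulus, and 0.01 once the libraries were scaled by median of ratios (the median gene set equal across libraries). The 100 most abundant genes took 49.6% to 52.6% of TPM with LPS, against 38.6% to 42.8% without stimulus. A gene whose TPM stayed level thus lay above most genes, and the changes are given as deposited, with those after scaling beside them. Of all genes tested, 86.4% differed at an adjusted p under 0.05 (limma, Benjamini-Hochberg) as deposited, 14.1% higher and 72.3% lower, so a call by itself says little. Of the 9 members tested, 7 differed: Tlr1, Tlr2, Tlr4, Tlr3 and Tlr9 were higher, and Tlr8 and Tlr13 lower. The members' median difference was 0.28. After scaling, 78.1% of all genes differed, 39.3% higher and 38.7% lower, and all 9 members differed, 7 higher and 2 lower.

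Among the surface receptors, Tlr2 rose with LPS. It lay at 593 to 763 TPM (median 643 TPM) with LPS, above every library without stimulus. The log2 difference was 0.78 ± 0.07 (SE, adjusted p = 1.56e-08), with all 7 matched pairs higher, 1.63 after scaling and 0.67 without the 3 libraries. Groups of 7 libraries that do not overlap, with LPS the higher, were found for 8.6% of all genes. Tlr1, the partner of TLR2 for triacylated lipoproteins, was at 27.5 to 52.8 TPM with LPS and at 22.1 to 52.5 TPM without, so the groups overlapped. Its rise was 0.56 ± 0.15 (adjusted p = 0.00203, 5 of 7 pairs higher), 1.38 after scaling and 0.73 without the 3 libraries. The call of Tlr1 was lost without the libraries labelled Bgn-/- (0.36, adjusted p = 0.0547) and in an additive fit of label and the 9 treatments, read for LPS without added protein (0.20, adjusted p = 0.349). Tlr6, the partner for diacylated lipoproteins, did not pass the test as deposited, at a mean of 24.8 ± 3.83 TPM with LPS and 24.7 ± 6.3 TPM without (difference 0.03, adjusted p = 0.817). After scaling its difference was 0.84 (adjusted p = 2.84e-06). Tlr1 and Tlr6 are neighbours on the minus strand of chromosome 5 (GRCm38, 64924679 to 64933563 and 64952031 to 64960097). The ratio of Tlr1 to Tlr6 within a library, which no scaling between libraries alters, was 1.51 to 1.95 with LPS and 0.954 to 1.68 without. Tlr4, the LPS receptor itself, was at 48.5 to 70.4 TPM with LPS and 33.7 to 60 TPM without. It rose by 0.28 ± 0.09 (adjusted p = 0.00846, 5 of 7 pairs higher), by 1.11 after scaling and by 0.25 without the 3 libraries (adjusted p = 0.04). Its call was lost without the wild-type libraries (0.19, adjusted p = 0.167), without those labelled Bgn-/- (0.21, adjusted p = 0.0655) and in the additive fit (0.29, adjusted p = 0.0756).

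The nucleic acid receptors moved in both directions with LPS. Tlr3 rose from 7.15 to 15.9 TPM (median 10.8 TPM) without stimulus to 29.6 to 58.8 TPM (median 36.7 TPM), and the groups did not overlap. The difference was 1.80 ± 0.14 (adjusted p = 5.52e-09, 7 of 7 pairs higher), the largest rise of the members, and 2.60 after scaling. Tlr8 went the other way, from 45.7 to 70.2 TPM (median 60 TPM) to 6.1 to 17.4 TPM (median 11.6 TPM). Every LPS library lay below every library without stimulus. Tlr8 fell by 2.38 ± 0.14 (adjusted p = 8.99e-11, 0 of 7 pairs higher), and its difference was -1.58 after scaling. Tlr13 fell likewise, from 111 to 138 TPM (median 131 TPM) to 25.6 to 44.1 TPM (median 37.2 TPM), again with no overlap. Its difference was -1.80 ± 0.10 (adjusted p = 6.31e-11, 0 of 7 pairs higher), and -0.97 after scaling. Groups that do not overlap, with LPS the lower, were found for 58.2% of all genes as deposited, and read against that share it is no result about these 2 genes. Both differences were larger than the median of -0.72 and held in direction under both scalings. The summed macrophage markers were lower with LPS as well, among them Csf1r, the receptor for the growth factor CSF1, at 151 to 238 TPM against 861 to 1264 TPM. Adgre1, which encodes F4/80, had medians of 578 and 669 TPM. The Fc receptor gene Fcgr1 was the other way by its medians, 46 TPM with LPS and 14.4 TPM without. Its ranges overlapped, at 22.7 to 179 TPM with LPS and 6.07 to 188 TPM without. The unstimulated values of 188 and 164 TPM were those of the 2 libraries that stood apart first. In such bulk samples, fewer cells of a type and less RNA per cell cannot be told apart.

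Tlr7 and Tlr9 were the other 2 endosomal members. Tlr7 lies beside Tlr8 on the X chromosome (GRCm38, minus strand, 167304929 to 167330558 and 167242696 to 167264329). It was at 175 to 214 TPM with LPS and 127 to 195 TPM without, a difference of 0.17 ± 0.09 that missed the threshold (adjusted p = 0.0726). It passed after scaling, at 1.01, and without the first 2 libraries, at 0.25 (adjusted p = 0.0261), but not without the 3 (0.15, adjusted p = 0.111). The ratio of Tlr7 to Tlr8 within a library was 2.11 to 3.58 without stimulus, 2.85 to 6.69 with CpG and 10.5 to 30.7 with LPS. Tlr9, the CpG DNA receptor, was at 4.13 to 5.78 TPM with LPS and 1.98 to 4.92 TPM without, and rose by 0.54 ± 0.14 (adjusted p = 0.00224, 5 of 7 pairs higher). After scaling the rise was 1.22, and without the wild-type libraries the call was lost (0.37, adjusted p = 0.131). The highest unstimulated values of Tlr9, 4.92 and 4.73 TPM, were those of the 2 libraries that stood apart first. The other 5 were at 1.98 to 3.04 TPM, and without all 3 the rise was 0.76. The groups then no longer overlapped, as the 2 highest unstimulated values had been left out. The share of all genes whose groups did not overlap in that setting was not worked out. B cells also express Tlr9, and those 2 libraries held the most of the B cell gene Cd79a, at 106 and 98.1 TPM against a median of 66.8 TPM without stimulus. The 6 B cell markers summed to a median of 190 TPM without stimulus, 131 TPM with LPS and 144 TPM with CpG. The part of B cells in the Tlr9 values was not tested.

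**Figure D2:**
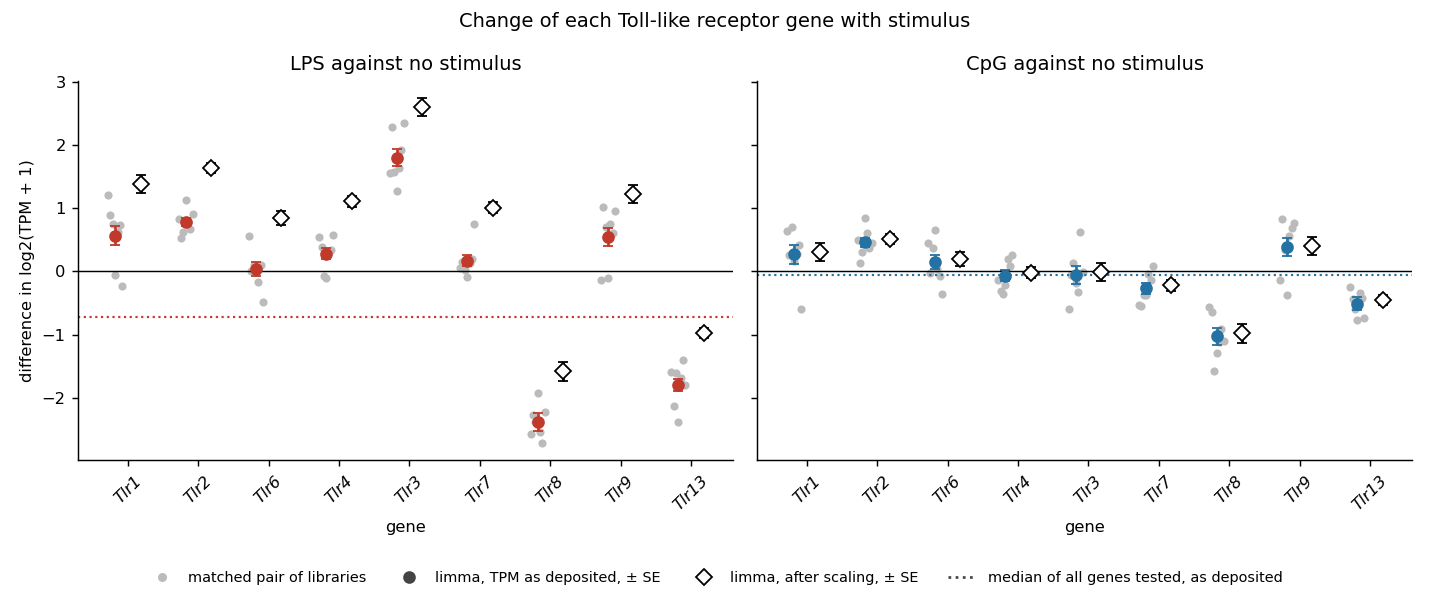
Difference in log2(TPM + 1) from no stimulus (vertical axis) for the 9 genes tested with LPS (left) and CpG (right); grey points are the 7 matched pairs, filled points the limma estimates as deposited and open diamonds those after scaling, both with SE, and the dotted lines the median of all genes. With LPS, Tlr8 and Tlr13 lie below the dotted line at -0.72 and the other 7 above it.

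The sequences upstream of the 2 genes that fell are shown with that of Tlr2, the most abundant gene that rose, because a reader may want to see which short motifs they hold. They come from RefSeq (GRCm38.p6), whose promoter table held 8 of the 10 members, with 250 bases before and 50 from each start. Only bases before the start and outside GENCODE exons are printed, 5′ to 3′ along the gene, for chrX:167264330-167264579 (Tlr8, minus strand), chrX:106143025-106143203 (Tlr13, plus strand) and chr3:83841768-83841858 (Tlr2, minus strand). Capitals mark a match to GAGGAA, the core of the sites bound by the myeloid factor PU.1, on either strand.
Tlr8: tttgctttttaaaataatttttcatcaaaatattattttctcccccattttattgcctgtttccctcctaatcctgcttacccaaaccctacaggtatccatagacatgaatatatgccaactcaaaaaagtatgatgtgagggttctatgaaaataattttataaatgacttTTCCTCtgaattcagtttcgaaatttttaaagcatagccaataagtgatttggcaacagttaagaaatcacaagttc
Tlr13: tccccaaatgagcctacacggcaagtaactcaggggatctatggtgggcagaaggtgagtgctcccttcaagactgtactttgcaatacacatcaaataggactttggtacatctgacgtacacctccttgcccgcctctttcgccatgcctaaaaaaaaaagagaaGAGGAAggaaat
Tlr2: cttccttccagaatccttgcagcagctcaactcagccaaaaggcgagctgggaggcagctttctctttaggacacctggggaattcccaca
The core was found once in each of the Tlr8 and Tlr13 windows, and 28.3% of the 32851 promoters in the table hold it on either strand. It is also in 1 of the Tlr1 windows and at 2 places in the Tlr9 window, and both of those genes were called higher with LPS. The other 3 motifs searched on both strands were that of NF-kB (GGGA and TTCC with 2 bases between), found in 1.47% of all promoters, the interferon-stimulated response element (GAAA and GAAA with 2 bases between) in 3.44% and AP-1 (TGANTCA) in 7.81%. None of these 3, in exactly these letters, is in the windows of Tlr2, Tlr8 or Tlr13. Looser forms of the sites, among them other spellings of the NF-kB site, were not searched. Sites that differ from these letters may be present, also in the Tlr2 stretch printed above. The Tlr3 window holds GGGAGTTTCC, an NF-kB match on the gene's strand with its first base at -211, inside a GENCODE exon of Tlr3. One of the Tlr6 windows holds 2 overlapping matches to the interferon-stimulated response element, and the Tlr9 window 1 to AP-1.

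With CpG, the TPM scale stayed near that without stimulus (median difference of all genes -0.05), and 37.7% of all genes differed, 15% higher and 22.6% lower. Of the 9 members, 5 differed: Tlr2 and Tlr9 were higher, and Tlr7, Tlr8 and Tlr13 lower. The members' median difference was -0.06. Tlr2 was at 450 to 623 TPM (median 522 TPM) with CpG. The rise of 0.46 ± 0.07 (adjusted p = 0.000102) was seen in 7 of 7 pairs and was 0.51 after scaling, although the groups overlapped. Tlr8 was at 21.6 to 47.2 TPM (median 27.5 TPM) with CpG. Its difference was -1.03 ± 0.14 (adjusted p = 3.71e-05), with 0 of 7 pairs higher, and -0.98 after scaling. The 2 highest CpG values of Tlr8, 47.2 and 37.9 TPM, were in the libraries labelled Bgn-/-. Tlr13 fell by 0.51 ± 0.10 (adjusted p = 0.000991, 0 of 7 pairs higher), to 75.7 to 113 TPM, and its difference after scaling was -0.46. Groups that do not overlap were found for 4.93% of all genes in the higher and 7.52% in the lower direction, and for none of the members.

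The other CpG results were less firm. Tlr7 was at 108 to 154 TPM, a difference of -0.27 ± 0.09 (adjusted p = 0.0206, 1 of 7 pairs higher), but not past the threshold after scaling (-0.22, adjusted p = 0.0642) or without the first 2 libraries (-0.20, adjusted p = 0.114). Without the 3 libraries Tlr7 passed (-0.30, adjusted p = 0.013), and its groups then did not overlap. The share of all genes that did so without the 3 was not worked out. Tlr9, at 2.99 to 4.96 TPM, was higher by 0.38 ± 0.14 (adjusted p = 0.046, 5 of 7 pairs higher, 0.40 after scaling), and leaving out 1 library ended that call in 16 of 21 fits. Without all 3 libraries that stood apart, the Tlr9 difference was 0.61 (adjusted p = 0.000359). Tlr1 did not pass the test with all libraries (0.27, adjusted p = 0.161), and did without the 3 (0.44, adjusted p = 0.00799) or without the untreated wild-type library alone (0.40, adjusted p = 0.0137). Tlr3 was at 6.81 to 13.9 TPM with CpG, a difference of -0.06 (adjusted p = 0.774), where LPS had raised it. Tlr4 differed by -0.07 (adjusted p = 0.581) and Tlr6 by 0.15 (adjusted p = 0.313). The number of members called fell from 5 to 3 when either CpG library labelled Bgn-/- was left out. The share of all genes called in those fits was not worked out.

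The 2 stimuli were also compared directly. Of all genes 85.7% differed between LPS and CpG, 11.6% higher and 74.1% lower with LPS, and of the 9 members 6 did, 4 higher and 2 lower. Of the 4 higher with LPS, Tlr3 differed the most, by 1.86 ± 0.14 (adjusted p = 4.69e-09, 7 of 7 pairs), followed by Tlr7 at 0.45 ± 0.09 (adjusted p = 0.000152), Tlr4 at 0.35 ± 0.09 (adjusted p = 0.0019) and Tlr2 at 0.32 ± 0.07 (adjusted p = 0.000335). The LPS and CpG ranges of Tlr3 and Tlr7 did not overlap, a pattern found for 8.02% of all genes with LPS the higher. Tlr8 was lower with LPS than with CpG (-1.35 ± 0.14, adjusted p = 1.07e-07), as was Tlr13 (-1.29 ± 0.10, adjusted p = 4.4e-09), each in 7 of 7 pairs and without overlap, as were 62.2% of all genes. After scaling these differences were -0.61, with 1 of 7 pairs now higher, and -0.51, and those of Tlr3, Tlr7, Tlr4 and Tlr2 were 2.61, 1.24, 1.13 and 1.12. On that scale 74.6% of all genes differed, 36.8% higher and 37.8% lower with LPS, and all 9 members did, 7 higher and 2 lower. Tlr1 and Tlr9 were among them, at 1.06 and 0.82, where as deposited they had missed the threshold. Tlr6 showed -0.12 as deposited (adjusted p = 0.321) and 0.65 after scaling (adjusted p = 5.48e-05), so its direction depends on the scale.

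The makeup of the family, taken as each gene's share of the summed TPM of the 10 genes, does not depend on scaling between libraries. The sum itself was 816 to 954 TPM without stimulus, 987 to 1152 TPM with LPS and 797 to 1003 TPM with CpG. Tlr2 made up 40.1% to 49.1% of it without stimulus, 57.6% to 67.8% with LPS and 54.1% to 62.1% with CpG. Tlr8 and Tlr13 together made up 18.8% to 24.2% without stimulus, 3.81% to 5.21% with LPS and 10.3% to 17.9% with CpG. The 3 ranges of that pair did not overlap, while those of Tlr2 with LPS and CpG did. A share also falls when another member rises, as Tlr2 did. In TPM, groups lower without overlap were found for 58.2% of all genes with LPS against no stimulus. They were found for 62.2% with LPS against CpG and 7.52% with CpG against no stimulus. The lack of overlap is therefore not read as a result about the pair. Tlr3 held 0.823% to 1.83% without stimulus and 2.9% to 5.11% with LPS. With LPS the ranges of Tlr3 and Tlr13 overlapped, with Tlr3 the higher in 3 of 7 libraries and a ratio of Tlr3 to Tlr13 of 0.737 to 1.59, against 0.0532 to 0.115 without stimulus. Tlr4 kept a nearly level share, at 4.08% to 6.29% without stimulus and 4.3% to 6.67% with LPS.

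**Figure D3:**
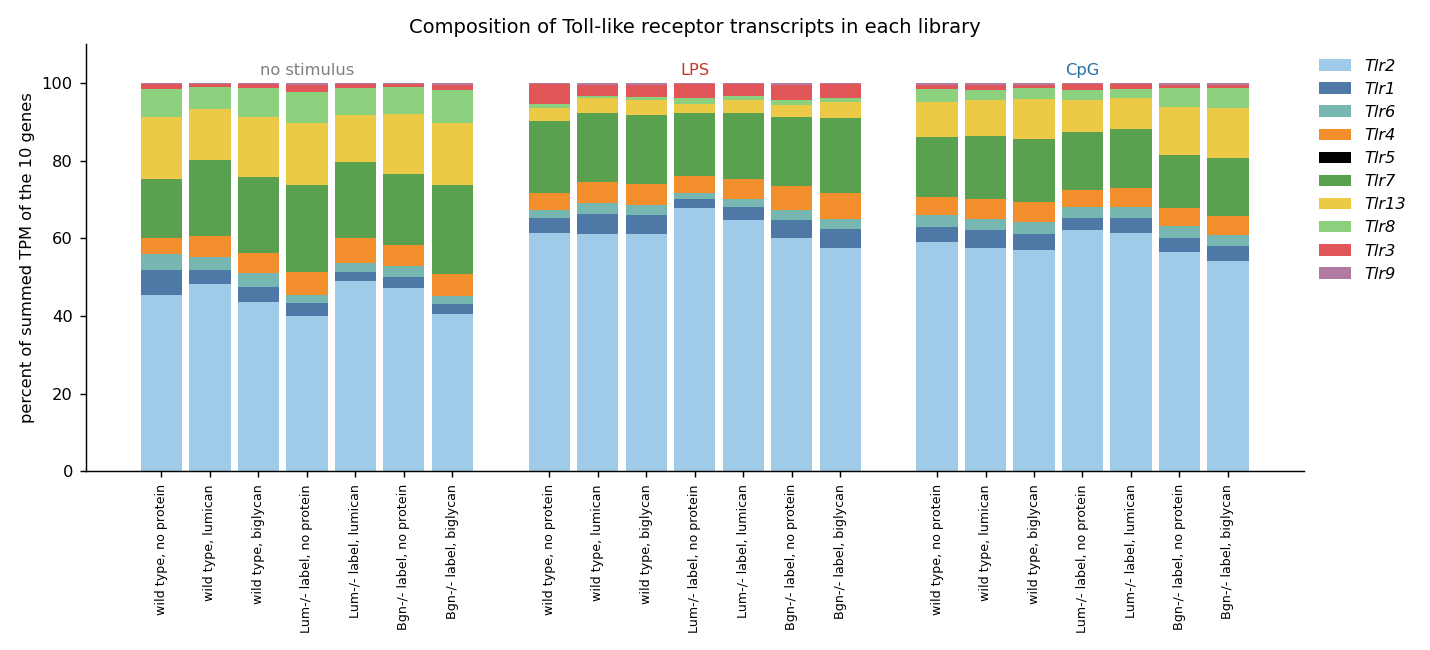
Share of each gene in the summed TPM of the 10 genes (vertical axis, percent) in each of the 21 libraries (bars, grouped by stimulus and named by genotype label and protein). The combined share of Tlr8 and Tlr13 is 18.8% to 24.2% without stimulus and 3.81% to 5.21% with LPS.

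Gene sums of TPM include short transcript models, which weigh more than their reads because TPM divides by length. Models under 1000 bases held 37.4% of the TPM of Tlr6, 27.9% of Tlr8, 21.6% of Tlr3, 16.7% of Tlr1 and 14.1% of Tlr7, and at most 2.49% of the other 5 members. For Tlr8 that share was 25.2% without stimulus and 41.5% with LPS. With only the most abundant transcript of each gene, the difference of Tlr8 with LPS was -2.75 and that of Tlr3 was 2.04. The leading Tlr3 model, a coding one, held a mean of 40.9% ± 11.9 (SD, n = 7) of the gene's TPM without stimulus and 52.2% ± 4.01 with LPS.

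The genotype labels and the added proteins gave no call among the members at the main settings. Of all genes 5.34% differed between the libraries labelled Lum-/- and wild type, 0.213% for the label Bgn-/-, 0% with added lumican and 0.0085% with added biglycan. In the same limma fits, 3, 1, 1 and 0 of the 9 members had an unadjusted p under 0.05, as did 21.3%, 7.49%, 9.95% and 8.55% of all genes. Tlr1 was the nearest to a call: in 6 matched treatments it had a mean of 30.8 TPM in the libraries labelled Lum-/- and 43 TPM in wild type, and it was lower under that label in all 6 (-0.44 ± 0.13, adjusted p = 0.0717). Without the 3 libraries that stood apart this passed (-0.38, adjusted p = 0.0307), as did Tlr2, higher under the label by 0.20 (adjusted p = 0.0112). Those fits called 12.3% of all genes. Of 21 fits leaving out 1 library each, only that without the untreated library labelled Lum-/- called Tlr2 (0.22, adjusted p = 0.0335). Only that without the untreated library labelled Bgn-/- called Tlr1 (-0.47, adjusted p = 0.0235). Over the 21 fits the adjusted p reached 0.516 for Tlr2 and 0.203 for Tlr1. The share of all genes called in these fits was not worked out. A label and its cell preparation cannot be told apart in this design. The mast cell markers moved with it: they summed to at most 10.2 TPM under either knockout label and to 3.4 to 114 TPM in wild type, where the untreated library was the lowest, and their part in these differences was not tested.

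Among the protein comparisons, Tlr8 with added lumican had the lowest adjusted p. As deposited it was lower in all 6 matched pairs, with means of 29.2 and 35.6 TPM (-0.37 ± 0.14, adjusted p = 0.404). Tlr4, also as deposited, was higher in all 6 pairs with lumican (51.5 against 45.1 TPM, 0.18 ± 0.09, adjusted p = 0.51) and in all 6 with biglycan (51.2 against 45.4 TPM, 0.17 ± 0.09, adjusted p = 0.637). The wild-type libraries without protein serve both comparisons, and neither passed the test. After scaling, Tlr4 was higher in 5 of 6 pairs with lumican (0.15) and in 4 of 6 with biglycan (0.10). Tlr8 with lumican then had 1 of 6 pairs higher (-0.41). The share of all genes with all 6 pairs in the same direction was not worked out.

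**Figure D4:**
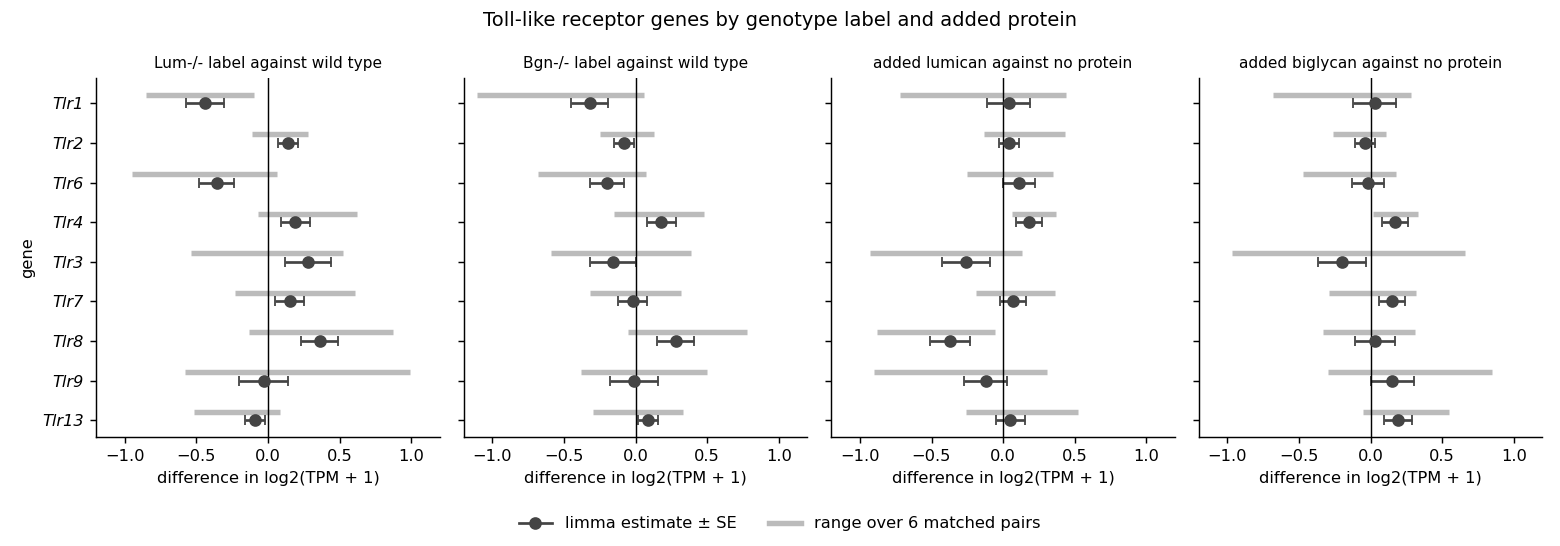
Difference in log2(TPM + 1) (horizontal axes) of the 9 genes tested (vertical axis) for 2 genotype labels against wild type and 2 added proteins against none; points are limma estimates with SE and grey bars the range over 6 matched pairs. All values are as deposited. Bars clear of 0 are those of Tlr1 for the label Lum-/-, Tlr8 and Tlr4 for lumican, and Tlr4 for biglycan. No estimate passed the adjusted test.

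Whether a label or a protein altered the response to a stimulus was tested by interaction terms. None of the 36 tests by genotype label passed (8 had an unadjusted p under 0.05 in limma), and none of the 36 by protein (3 had). Over all genes, no term called more than 0.017%, and an unadjusted p under 0.05 was found for 5.54% to 10.5% in the label terms and 3% to 9.99% in the protein terms. The lowest adjusted p among the members was that of Tlr4 for the label Lum-/- and LPS (-0.50 ± 0.11, adjusted p = 0.281). Without protein, Tlr4 was at 33.7 TPM untreated and 50.8 TPM with LPS in wild type, and at 52.2 and 48.5 TPM under the label. Both untreated values come from libraries that stood apart, and without the 3 libraries the term was -0.46 (adjusted p = 0.251). For the proteins, the lowest was Tlr13 with lumican and LPS (0.60 ± 0.17, adjusted p = 0.411).

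The partners of the receptors were read from 3 lists, of accessory molecules, of trafficking and processing factors and of adaptors with their kinases and inhibitors. Of all genes, 14.1% were higher and 72.3% lower with LPS, and 39.3% and 38.7% after scaling. With CpG 15% were higher and 22.6% lower. Of the 6 accessory genes, LPS raised 1 and lowered 3, with a median difference of -0.38 against -0.72 for all genes. After scaling 3 were higher and 2 lower, with a median of 0.45. Cd14, which hands LPS to TLR4 and MD-2, rose from a mean of 730 to 2457 TPM (1.75 ± 0.08, adjusted p = 5.05e-12, 2.60 after scaling). Ly96, which encodes MD-2, was at 62.7 and 56.5 TPM, with no call as deposited (-0.16, adjusted p = 0.0602) and a higher level with LPS after scaling (0.67, adjusted p = 1.35e-07). Cd180, a receptor related to TLR4, fell from 93.3 to 23.7 TPM (-1.97 ± 0.09, adjusted p = 7e-12, -1.14 after scaling). With CpG the counts were again 1 and 3. Cd36, a scavenger receptor that assists TLR2, fell the most (-0.69 ± 0.11, adjusted p = 0.00015), and Cd14 was the one that rose (0.24 ± 0.08, adjusted p = 0.0227), a call that was lost without the 3 libraries (0.16, adjusted p = 0.178).

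All 9 trafficking and processing genes differed with LPS, 2 higher and 7 lower, with a median of -1.05, where 86.4% of all genes differed and 72.3% were lower. Cnpy3, a chaperone of many Toll-like receptors, fell from 107 to 26.8 TPM (-1.96 ± 0.08, adjusted p = 1.7e-12). Unc93b1, which carries the nucleic acid receptors to endosomes, fell from 558 to 225 TPM (-1.30 ± 0.07, adjusted p = 9.68e-11), and Slc15a4, an endolysosomal transporter needed for their signals, from 46.1 to 12.5 TPM (-1.80 ± 0.11, adjusted p = 1.4e-10). All 3 also fell after scaling, at -1.13, -0.46 and -0.99. Hsp90b1, the chaperone gp96, rose (0.44 ± 0.07, adjusted p = 2e-05), as did Ap3b1, a subunit of an endosomal sorting complex (0.28 ± 0.05, adjusted p = 4.44e-05). After scaling 2 were higher and 5 lower. CpG lowered 7 of the 9 and raised none, with a median of -0.34, where 22.6% of all genes were lower and 15% higher. The largest falls were those of the protease genes Lgmn (-0.86 ± 0.08, adjusted p = 2.45e-06) and Ctsl (-0.61 ± 0.18, adjusted p = 0.0151).

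Of the 14 adaptor, kinase and inhibitor genes tested, LPS raised 5 and lowered 5, with a median of -0.09. Those that rose were Pik3ap1, a signalling adaptor for phosphoinositide 3-kinase (1.02 ± 0.07), Myd88, the adaptor of nearly all Toll-like receptors (0.93 ± 0.06), Irak3, an inhibitory kinase-like protein (0.87 ± 0.10), Irak2 (0.72 ± 0.09) and Traf6 (0.64 ± 0.06). Ticam2, the bridging adaptor of TLR4 towards TRIF, fell from 32.8 to 6.71 TPM (-2.12 ± 0.10, adjusted p = 9.56e-12, -1.35 after scaling). The kinases Irak4 (-1.33 ± 0.07) and Irak1 (-1.30 ± 0.08) fell too, also after scaling (-0.53 and -0.47). Ticam1, which encodes TRIF, and Tirap were lower as deposited (-0.22 and -0.26) and higher after scaling (0.56 and 0.53), so their direction depends on the scale. After scaling 9 were higher and 3 lower. With CpG 4 rose and 3 fell, where 15% of all genes were higher and 22.6% lower. The largest changes were the falls of Sigirr, an inhibitory receptor at 2.15 and 0.856 TPM (-0.72 ± 0.22, adjusted p = 0.0162), and of Ticam2 (-0.65 ± 0.10, adjusted p = 0.000131), and Myd88 rose by 0.34 ± 0.06 (adjusted p = 0.000503). The LPS and CpG comparisons share their unstimulated libraries.

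**Figure D5:**
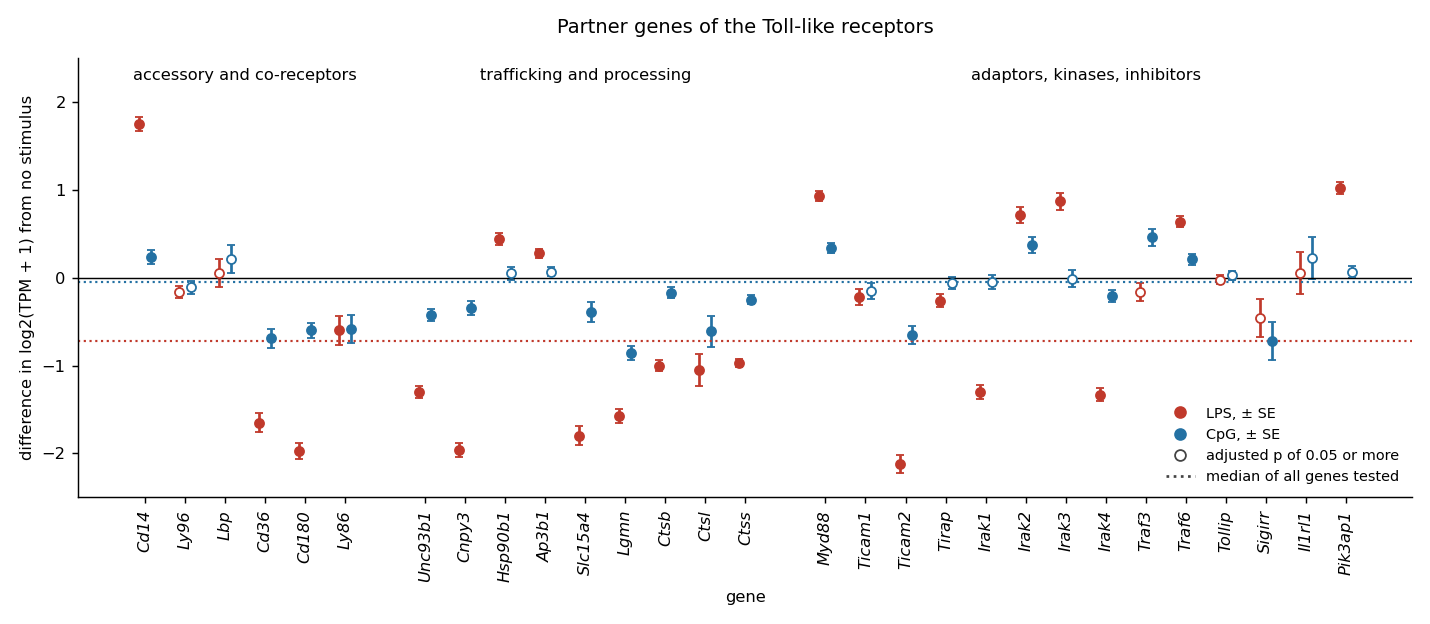
Difference in log2(TPM + 1) from no stimulus (vertical axis) of 29 partner genes (horizontal axis) in 3 lists, with LPS in red and CpG in blue, bars giving SE, open symbols estimates that missed the threshold, and dotted lines the median of all genes tested. Cd14 is the highest with LPS at 1.75 and Ticam2 the lowest at -2.12.

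As a description, the genes whose log2 levels followed each member most closely over the 21 libraries were named, the 2 with the highest Pearson r for each. They share library, depth and stimulus with the member. For Tlr3 these were Sp110 and Mov10 (both 0.99), for Tlr13 Mkrn1 and Osbpl2 (both 0.99), for Tlr8 Ckb and Fcgr3 (both 0.98) and for Tlr2 Tnfsf9 and Gpr84 (both 0.97). The other members had lower values, 0.85 to 0.88. The most like for Tlr1 was Susd2 (0.88), for Tlr4 Clec4d (0.88), for Tlr6 Mfsd7a (0.87), for Tlr7 Oser1 (0.87) and for Tlr9 Cxcr5 (0.88), a chemokine receptor gene of B cells. Within the family, Tlr8 and Tlr13 had r = 0.91 over all 21 libraries, and 0.65, -0.72 and 0.86 within the 7 libraries without stimulus, with LPS and with CpG. Tlr1 and Tlr6 had 0.63 over all libraries, and 0.74, 0.95 and 0.60 within the same groups.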

How the data were processed

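RNA was sequenced from 21 libraries. The tools named in the submitters' processing notes are kallisto 0.44.0 and bcl2fastq 1.8.4, and the build is GRCm38. The authors deposited TPM per transcript, scaled inside every library, and the table gives no counts, so depth is unknown and no interval from counts was made. Libraries held 40231 to 59621 transcripts above 0. TPM of the 89562 transcripts was summed per gene. Blank names (5423) were matched through GENCODE vM21, and 1351 transcripts without a gene were left out (5350.9 to 7550.7 TPM per library). Tests ran on log2(TPM + 1) of the 11763 genes whose mean reached 1 TPM, where changes of low genes are understated, with limma 3.58.1 in R 4.3.3 (trended eBayes, two-sided, Benjamini-Hochberg over all genes, threshold 0.05). Stimulus fits had the 7 combinations of genotype label and protein as blocks. Label fits had the 9 treatments as terms, and protein fits label and stimulus. The fits were tested on simulated data with 200 changed genes. Python 3.11.15, pandas 2.3.3 and matplotlib 3.10.9 did the rest. Members, lists, motifs and tests were chosen with earlier results of these data known. Named genes are all members, the 2 genes of each list with the largest absolute change in a comparison, and the 2 most like each member by Pearson r. Other genes were named after their values were seen. Alternatives were other pseudocounts, filters, scalings, transcripts and blocks, and leaving out libraries.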

Additional observations from a re-analysis of the deposited data

Results flagged for a closer look

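In 4 of the 27 groups of 7 libraries (9 genes, 3 stimuli), 1 library lay far from the other 6, by a test of the gap to the nearest library over the range that flags about 1 group in 20 by chance. Without stimulus, Tlr1 was at 52.5 TPM in the untreated wild-type library and at most 32.4 TPM in the others. That library is 1 of the 3 that stood apart, and without the 3 the rise of Tlr1 with LPS was 0.73 rather than 0.56. Tlr8 without stimulus was at 45.7 TPM in the wild-type library with lumican alone and at least 59.9 TPM in the others. With LPS, Tlr3 was at 58.8 TPM in the wild-type library without protein and at most 40 TPM in the others. With CpG, Tlr7 was at 108 TPM in the library labelled Bgn-/- without protein and at least 135 TPM in the others, and the fall of Tlr7 with CpG lost its call without that library (-0.23, adjusted p = 0.0554, limma).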

How the results depend on the processing

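Each combination has 1 library, and depth is not given, which bears most on the low genes Tlr9 and Tlr5. The labels number no replicates, and the matched treatments entered the stimulus fits as blocks. Leaving out 1 library or 1 genotype label gave 3 to 5 called members for CpG against no stimulus (main 5), 5 to 8 for LPS (main 7), 5 to 7 for LPS against CpG (main 6) and 0 to 1 for the label Lum-/- (main 0). It gave 0 for the label Bgn-/-, the added proteins and the interaction terms. An additive fit of label and the 9 treatments, read for the stimulus without added protein, called 3 with CpG. The shares of all genes called in these fits were not worked out, so a changed count is no result about the members. For the label Lum-/-, 1 was called without the first 2 libraries (10.4% of all genes) and 2 without the 3 (12.3% of all genes). After scaling, 1 was called without the 3. That setting was added after the data were seen, as was a fit without block and without the 3. Tlr6 in LPS against CpG turned from -0.12 to 0.65 after scaling, with and without the 3 libraries, and to 0.48 after quantile normalization. The calls of Tlr2, Tlr3, Tlr8 and Tlr13 with LPS kept their direction and their side of the threshold in every fit run.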
